A study of Mus musculus with 48 samples.

Results

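The 9 genes described here are *Phgdh*, *Psat1* and *Psph*, which encode the enzymes that make serine from a glycolytic intermediate, and *Asns*, *Slc3a2*, *Slc7a5*, *Chac1*, *Sesn2* and *Cebpb*, which are targets or partners of the transcription factor ATF4. They were taken as every probe whose accession maps to one of these symbols, which gave 13 of the 41174 probes on the array and 9 of the 18434 genes named. *Phgdh* had 3 probes, *Psph* and *Slc3a2* had 2 each, and the other genes had 1. All 13 probes were well above background in the mouse channel on all 24 liver arrays and all 24 colon arrays, so no member was lost to low signal.

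The samples were livers and colons of C57/BL6 mice killed at 12 weeks of age. Their dams ate a high-fat diet that was either supplemented with (H) or marginally deficient in (L) selenium and folate. In each group name the first letter is the dam's diet in gestation and lactation and the second is the diet of the pup after weaning, so HH and LL kept 1 diet throughout, and HL and LH changed diet at weaning. All groups, HH included, were on the high-fat base diet, and nothing in the labels says which pups shared a litter, so p-values measure the spread between these mice. Liver came from 5 HH mice (1 of them on 2 arrays, which were averaged) and from 6 mice each of HL, LH and LL. Colon came from 6 samples of each group, and no sample code in the labels was shared with liver. The paper describes 6 male offspring per group, with both tissues taken. The labels do not say whether a liver and a colon came from 1 mouse, so each code was counted as 1 mouse. The values are log2 ratios of mouse RNA (Cy3) over a common reference RNA (Cy5) on the same array, so 0 marks the reference level of that probe, and levels of different genes cannot be set against each other.

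Over the arrays as a whole, 55.1% to 66% of spots were well above background in liver and 66.8% to 73.7% in colon. The hepatocyte markers measured were above the reference in every liver group and far below it in every colon group, the 7 colon epithelium markers and the 6 smooth muscle markers were higher in colon (median log2 differences of 5.29 and 3.8), as the tissue labels say. Of other cell type markers, 5 of 5 for adipocytes, 4 of 5 for enteric neurons and 2 of 6 for lymphocytes were called higher in colon, and 2 of 5 for macrophages, 3 of 4 for erythroid cells, 3 of 6 for pancreatic acinar cells and 1 of 6 for lymphocytes higher in liver. The study describes the pups as male, but *Xist*, the RNA of the inactive X chromosome, was clearly present in 2 of 23 livers (1 HL and 1 LL) and in 6 of 24 colons (2 HH, 1 HL and 3 LL). Each slide held 1 array of each diet group of 1 tissue, and liver and colon were on separate slides scanned on separate days, so tissue and slide set cannot be told apart. In bulk tissue, fewer cells of a type and less RNA per cell cannot be told apart either.

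Serine is made from 3-phosphoglycerate in 3 steps, catalysed by phosphoglycerate dehydrogenase (*Phgdh*), phosphoserine aminotransferase (*Psat1*) and phosphoserine phosphatase (*Psph*), and it passes its carbon to the folate cycle when it is turned into glycine. When amino acids are short or proteins misfold, kinases phosphorylate the initiation factor eIF2, general translation slows, and the transcription factor ATF4 is made and switches on genes for amino acid synthesis, uptake and recycling. Adult liver is known for taking up and breaking down serine and glycine, whereas dividing cells can depend on making serine.

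ATF4 binds, with a C/EBP partner, to a composite element. Its letters were searched as TGATGNAA on both strands in the window from 250 bases before to 50 after each gene start of the RefSeq promoter table (GRCm38.p6). Of 32851 windows, 3.97% held a match. Promoters were found for 8 of the 9 members, in 9 windows, and 2 of these held a match. They belong to *Asns* and *Chac1*, and are shown because these are the members with the largest tissue difference and the largest spread between livers. *Slc7a5* was not in the table. The *Asns* window lies at chr6:7693160-7693459 on the minus strand, with its match starting at base -23 from the gene start. The *Chac1* window lies at chr2:119350992-119351291 on the plus strand, with a match in the reverse orientation starting at base -193. Capitals mark the match.
Asns: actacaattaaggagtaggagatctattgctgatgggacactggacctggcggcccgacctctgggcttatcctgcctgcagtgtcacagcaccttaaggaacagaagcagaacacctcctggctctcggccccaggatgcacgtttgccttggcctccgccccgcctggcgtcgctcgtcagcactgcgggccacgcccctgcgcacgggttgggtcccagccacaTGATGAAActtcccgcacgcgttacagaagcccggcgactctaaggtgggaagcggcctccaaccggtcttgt
Chac1: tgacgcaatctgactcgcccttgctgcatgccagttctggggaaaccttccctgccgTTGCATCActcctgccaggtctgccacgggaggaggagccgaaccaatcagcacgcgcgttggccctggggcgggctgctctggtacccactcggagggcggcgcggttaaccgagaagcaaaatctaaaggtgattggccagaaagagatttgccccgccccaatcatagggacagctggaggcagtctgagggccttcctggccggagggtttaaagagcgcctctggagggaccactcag
A match is a run of letters and not a measured binding site.

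**Figure D1:**
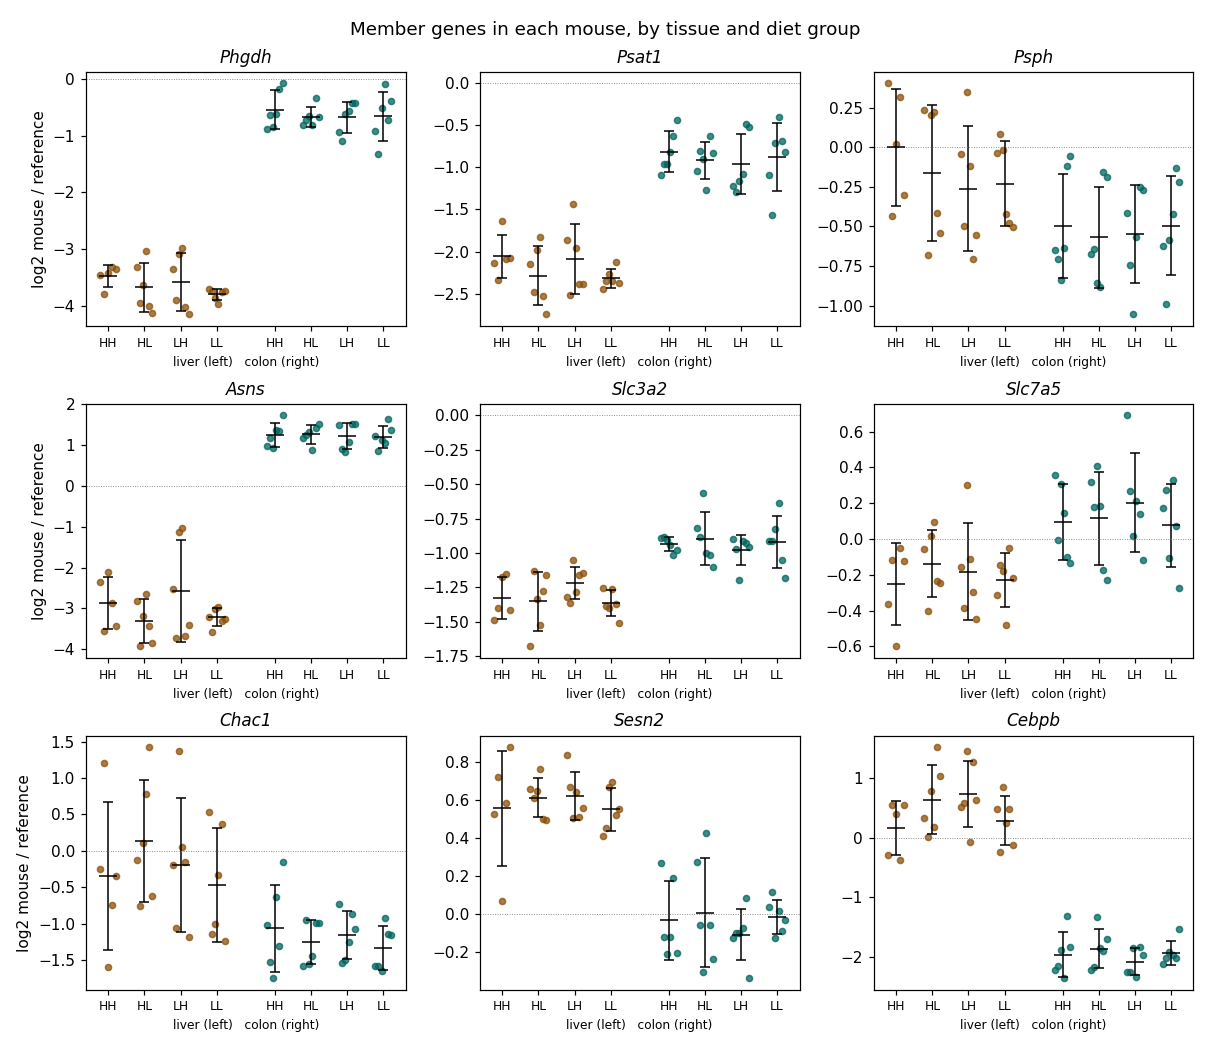
Log2 ratio of mouse RNA over reference RNA (y axis) for the chosen probe of each member gene, with 1 point per mouse, liver in brown and colon in green, by diet group on the x axis. Black bars give the mean and SD. *Asns*, *Phgdh* and *Cebpb* had no overlap between tissues, and the diet groups overlapped within each tissue.

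The tissues differed far more than the diets. Colon had more *Asns*, *Phgdh* and *Psat1* than liver, and less *Cebpb*, *Chac1* and *Sesn2*. With limma fitted over all probes, 8 of the 13 member probes (6 genes) passed a fold change over 1.5 and an FDR under 0.05, 5 of them higher in colon and 3 lower. Of all probes tested, 30.4% passed, 15.7% higher in colon and 14.6% higher in liver. All 13 member probes had an unadjusted p under 0.05, as had 71.2% of all probes. The median absolute log2 difference was 0.99 for the member probes and 0.27 for all probes. In 4 member probes (*Asns*, 2 of *Phgdh* and *Cebpb*) no colon value overlapped any liver value, against 23.2% of all probes.

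*Asns*, which makes asparagine from aspartate, showed the largest difference. Its liver values ran from -3.93 to -1.02 with a median of -3.20 (n = 23), and its colon values from 0.83 to 1.73 with a median of 1.23 (n = 24). Every colon was therefore above the reference and every liver below it. Colon exceeded liver by 4.22 on the log2 scale (SE 0.16, 18.7-fold, limma adjusted p = 2.67e-27).

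Of the serine synthesis enzymes, *Phgdh* catalyses the committed first step. Its brightest probe (A_51_P408732) gave -4.15 to -2.97 in liver (median -3.73) and -1.33 to -0.08 in colon (median -0.65), without overlap. The difference of 2.98 (SE 0.10, 7.92-fold, limma adjusted p = 3.73e-30) was larger than that of the other probes of *Phgdh*, 1.34 for A_51_P408729 (SE 0.08, adjusted p = 2.99e-20) and 1.29 for A_52_P661606 (SE 0.08, adjusted p = 7.02e-19). All 3 probes thus gave the same direction with sizes from 2.45-fold to 7.92-fold. *Psat1*, the second enzyme, ran from -2.75 to -1.43 in liver and from -1.57 to -0.40 in colon, so that the tissues overlapped slightly. It was 2.46-fold higher in colon (log2 difference 1.30, SE 0.09, limma adjusted p = 1.12e-17). The size of this *Psat1* difference depended on the processing, from 1.05 to 2.32 over the alternatives run.

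*Psph*, the last enzyme of the pathway, did not follow the other pair. Its liver values ran from -0.70 to 0.40 and its colon values from -1.06 to -0.06, with wide overlap. The colon was lower by both probes, by -0.36 (SE 0.10, limma adjusted p = 0.000858) and -0.22, short of the fold threshold. The direction turned to 0.25 when arrays were centred on their median in place of loess.

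*Slc3a2* and *Slc7a5* encode the heavy and the light chain of the LAT1 exchanger, which imports large neutral amino acids. *Slc3a2* ran from -1.68 to -1.05 in liver and from -1.20 to -0.56 in colon, and *Slc7a5* from -0.60 to 0.30 and from -0.28 to 0.69, so both overlapped between tissues. Both were slightly higher in colon but below the fold threshold, at 0.38 for *Slc3a2* (SE 0.04, 1.3-fold, limma adjusted p = 1.44e-10) and 0.32 for *Slc7a5* (SE 0.07, 1.25-fold, adjusted p = 2.68e-05). The second, dimmer probe of *Slc3a2* gave values between -0.53 and 0.10 in liver and between -0.38 and 0.14 in colon, which overlap almost wholly. With median centring both genes passed, at 0.86 and 0.74.

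The 3 members called higher in liver were *Cebpb*, *Chac1* and *Sesn2*. *Cebpb*, a transcription factor of the acute phase and of gluconeogenesis that can pair with ATF4, ran from -0.38 to 1.51 in liver (median 0.48) and from -2.35 to -1.32 in colon (median -1.96), without overlap. The difference was -2.40 (SE 0.12, 5.29-fold, limma adjusted p = 2.87e-23). *Chac1*, which degrades glutathione, spread from -1.60 to 1.43 in liver and from -1.75 to -0.15 in colon, and the colon was lower by -0.99 (SE 0.19, 1.98-fold, adjusted p = 1.16e-05). *Sesn2*, which restrains the growth kinase mTORC1 when leucine is scarce, ran from 0.07 to 0.88 in liver and from -0.34 to 0.43 in colon, with a difference of -0.62 (SE 0.05, 1.54-fold, adjusted p = 2.29e-14). With median centring, which puts the median of all probes at -0.22 against -0.01 with loess, *Chac1* gave -0.36 and *Sesn2* -0.02 and neither passed, whereas *Asns*, *Phgdh*, *Psat1* and *Cebpb* kept their direction and their call.

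**Figure D2:**
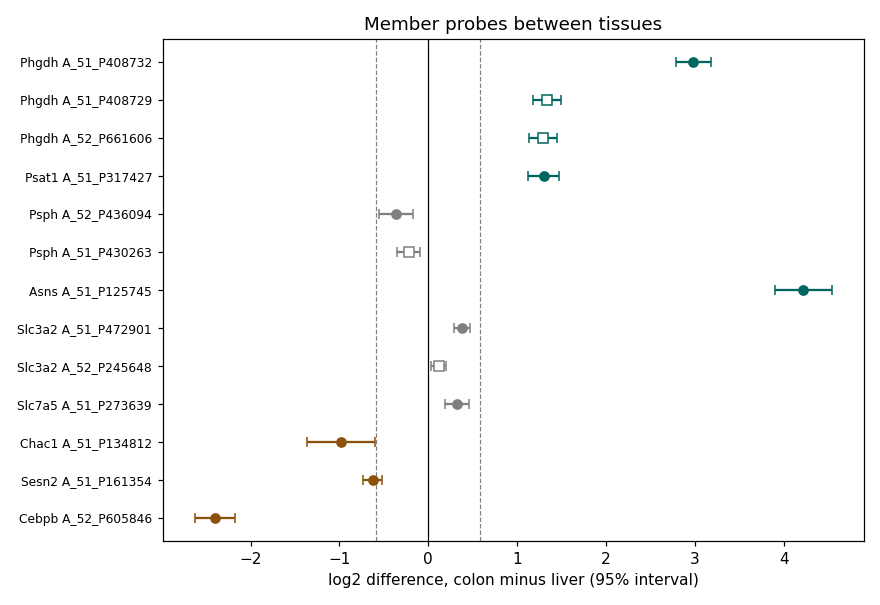
Log2 difference, colon minus liver (x axis), with the 95% interval for each of the 13 member probes (y axis), filled circles for the chosen probe of a gene and open squares for its other probes. Green marks probes called higher in colon, brown those called lower and grey those not called, and dashed lines mark the 1.5-fold threshold. *Asns* lies farthest right at 4.22 and *Cebpb* farthest left at -2.40.

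The rest of the ATF4 programme was split between the tissues in the same comparison. Of 20 genes of stress signalling, 6 were called higher and 5 lower in colon. Higher in colon were *Nupr1*, a stress-induced chromatin protein (5.11), *Stc2* (2.20), the mTORC1 inhibitor *Ddit4* (1.62), *Vldlr* (1.29), *Atf3* (0.83) and the amino acid sensor *Eif2ak4* (0.60). Lower were the hormone gene *Fgf21* (-3.65), *Atf5* (-3.33), the ATF4 inhibitor *Trib3* (-2.21), *Gdf15* (-1.29) and *Eif4ebp1* (-0.65). *Atf4* itself, named although it was not called, gave -0.44. Of 7 amino acid transporters, 3 were higher (*Slc1a5* by 3.78, *Slc7a1* by 2.34, *Slc7a3* by 1.52) and the glycine transporter *Slc6a9* was lower by -1.10. Of 7 measured amino acid and one-carbon enzymes, 3 were higher (*Aldh18a1* by 1.91, *Pck2* by 1.80 and *Mthfd2* by 1.09) and 3 lower (*Gpt2* at -4.15, *Cth* at -3.34 and *Shmt2* at -2.88). Of 20 cytosolic aminoacyl-tRNA synthetases, 4 were higher (Wars 1.31, Qars 1.18, Gars 0.89 and Vars 0.80) and 3 lower (*Aars* -1.50, Dars -1.04 and Tars -0.72), with a median log2 difference of 0.06. Paralogs and partners of the members were mostly higher in colon, with 6 higher and 2 lower of 9. The higher ones were *Cebpd* (1.56), *Slc7a7* (1.25), *Slc3a1* (1.20), *Sesn1* (1.04), *Slc7a8* (0.93) and *Slc7a6* (0.87), and the 2 lower were *Chac2* (-2.50) and *Cebpa* (-2.60), paralogs of *Chac1* and *Cebpb*.

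Genes that use serine and glycine went the other way from *Phgdh*, *Psat1* and *Asns*. Of 11 measured, 9 were lower in colon and 1 was higher, with a median log2 difference of -2.08. *Sds*, which turns serine into pyruvate, was lower by -5.72, *Gldc* of the glycine cleavage system by -5.84, *Agxt* by -7.09, *Gnmt* by -6.25, and *Shmt1*, which moves the serine carbon to folate, by -2.46. *Cbs* (-2.08), *Srr* (-1.93), *Sdsl* (-1.48) and *Gcsh* (-1.39) made up the rest of the 9. *Sptlc2*, which condenses serine with a fatty acid in sphingolipid synthesis, was the 1 that was higher, by 1.79. The proliferating cell markers also differed, with 5 of 6 called higher in colon (median 1.71), and their part in the difference of the serine enzymes was not tested.

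The diet comparisons asked whether low selenium and folate in the dam, in the pup or in both changed these genes. No member probe passed the thresholds in any of the 6 pairwise comparisons or the interaction of dam and pup diet, in either tissue. In these fits 0% of all probes did so. The paper, at the same fold change and FDR, reported differentially expressed probes in liver, most of them for HH *vs.* LH, and none in colon. The cause of this difference from the paper in liver was not tested. At an unadjusted limma p under 0.05, 0 of the 13 member probes stood out for HH *vs.* LH in liver against 12% of all probes. The counts were 0 for HH *vs.* HL (4.37%), 0 for HH *vs.* LL (3.45%), 0 for HL *vs.* LL (3.08%), 1 for LH *vs.* LL (6.38%), 0 for HL *vs.* LH (1.74%) and 1 for the interaction (11.4%). In colon 0 of 13 did so in every comparison, against 3.24% of all probes for HH *vs.* LH, 1.46% for HH *vs.* HL, 1.72% for HH *vs.* LL, 1.02% for HL *vs.* LL, 2.81% for LH *vs.* LL, 2.95% for HL *vs.* LH and 1.79% for the interaction.

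*Cebpb* came nearest to a diet difference. In the 5 HH livers it was -0.38, -0.29, 0.39, 0.54 and 0.55, and in the 6 LH livers -0.07, 0.51, 0.58, 0.63, 1.26 and 1.45. The HL livers ran from 0.00 to 1.51 (median 0.54) and the LL livers from -0.25 to 0.85 (median 0.36). The means of the mixed-diet groups were thus above those of HH and LL, but all 4 groups overlapped. LH exceeded HH by 0.56 (SE 0.28, 95% interval -0.02 to 1.15, limma adjusted p = 0.436), and the interaction of dam and pup diet was -0.92 (SE 0.39, limma adjusted p = 0.383). LH was higher than HH on 6 of 6 slides, by 0.05 to 0.94, although slides 3 and 6 carried the same HH mouse, so these differences rest on 5 HH mice. With the slide as a block and that mouse used once, by either of its arrays, the difference was 0.49 and 0.55 (limma adjusted p = 0.255 and 0.24) and the interaction -0.85 and -0.90 (adjusted p = 0.18 and 0.16), and neither was called. In colon *Cebpb* ran from -2.35 to -1.32 in HH and from -2.32 to -1.83 in LH, a difference of -0.12 (SE 0.16, adjusted p = 1). The test of colon against liver for HH *vs.* LH gave -0.68 for *Cebpb* (SE 0.33, limma adjusted p = 0.652). It was the 1 member probe at an unadjusted p under 0.05 in that test, against 7.54% of all probes.

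No cell type marker was called for HH *vs.* LH in liver. The mean of the 6 hepatocyte markers measured was 1.29 to 1.72 in HH and 1.66 to 2.13 in LH, with 3 of 6 at an unadjusted limma p under 0.05, where 12% of all probes were. The mean of the 6 lymphocyte markers was -0.29 to -0.04 in HH and -0.49 to -0.16 in LH, also with 3 of 6 under 0.05. The same held for 3 of 6 proliferating cell markers, 1 of 5 macrophage and 1 of 4 erythroid markers, all lower in LH, and for 0 of the colon epithelium, smooth muscle, pancreatic acinar, adipocyte and enteric neuron markers. Across the 23 livers *Cebpb* correlated at 0.48 with the hepatocyte mean and at -0.68 with the lymphocyte mean, values that share the arrays and the reference. Their part in the *Cebpb* difference was not tested.

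*Psph*, *Slc3a2* and *Asns* came next in order of p for HH *vs.* LH in liver. *Psph* was -0.43, -0.30, 0.02, 0.32 and 0.40 in HH and -0.70, -0.55, -0.50, -0.12, -0.04 and 0.35 in LH, so the groups overlapped, with a difference of -0.26 (SE 0.21, 95% interval -0.69 to 0.17, adjusted p = 0.65). *Slc3a2* was -1.48, -1.42, -1.40, -1.18 and -1.15 in HH and -1.36, -1.32, -1.28, -1.16, -1.14 and -1.05 in LH, again with overlap and with a difference of 0.11 (SE 0.09, adjusted p = 0.685). Its dimmer probe held the only unadjusted p under 0.05 for LH *vs.* LL, at -0.21 (limma adjusted p = 0.768), where the brighter probe gave -0.14 (adjusted p = 0.775).

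*Asns* was -3.55, -3.44, -2.86, -2.35 and -2.12 in the HH livers and -3.71, -3.68, -3.40, -2.53, -1.12 and -1.02 in the LH livers. LH replicates 3 and 4 were thus above every other liver, and the other 4 lay within or below the HH range. The difference of 0.28 (SE 0.42, 95% interval -0.60 to 1.16, adjusted p = 0.84) became -0.01 without replicate 3 and -0.03 without replicate 4. LH replicate 4 also had the highest mean of the 5 adipocyte markers of all livers, 1.66 against -0.40 for the next. *Asns* correlated with this mean at 0.71 over 23 livers and at 0.60 without that mouse, and the part of adipose RNA in its *Asns* value was not tested.

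The remaining members had higher p-values for HH *vs.* LH in liver. *Chac1* gave 0.15, with a 95% interval of -0.87 to 1.18. *Phgdh* gave -0.11 (-0.53 to 0.30), *Psat1* -0.03 (-0.40 to 0.33), *Sesn2* 0.07 (-0.15 to 0.28) and *Slc7a5* 0.07 (-0.19 to 0.33). In colon the intervals were narrower for the genes that spread widely in liver, -0.34 to 0.28 for *Asns* and -0.54 to 0.35 for *Chac1*. The group means in colon lay close together, *Asns* at 1.25 ± 0.30 in HH, 1.26 ± 0.22 in HL, 1.22 ± 0.32 in LH and 1.20 ± 0.27 in LL (SD, n = 6 each).

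**Figure D3:**
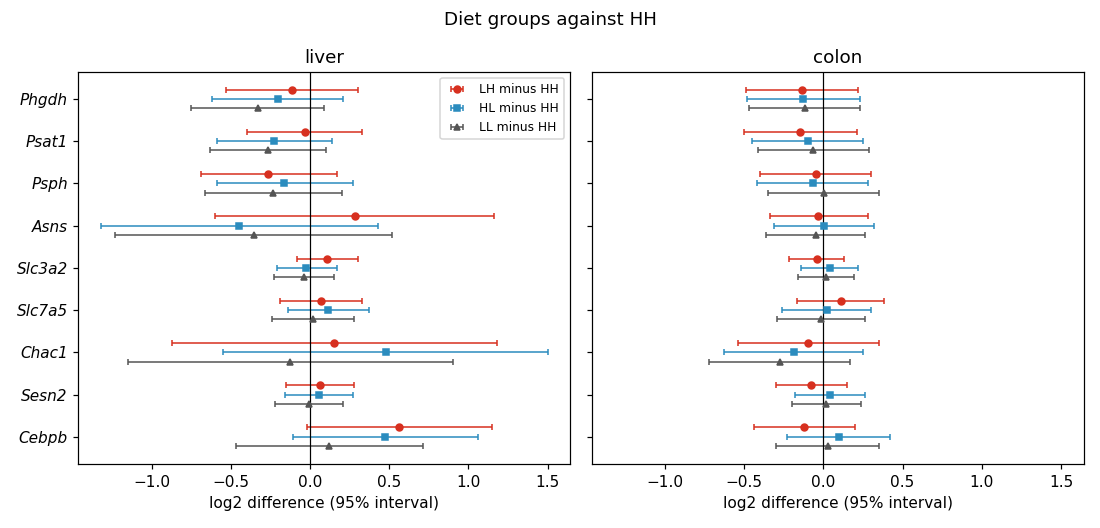
Log2 difference from HH (x axis) with the 95% interval for LH, HL and LL in liver (left) and colon (right), for the chosen probe of each member gene (y axis). All intervals cross 0, and those of *Asns*, *Chac1* and *Cebpb* are wider in liver than in colon.

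No other gene list of the programme was called for diet either. For HH *vs.* LH in liver, 4 of 20 aminoacyl-tRNA synthetases had an unadjusted p under 0.05, all higher in LH, where 12% of all probes had such a p, led by *Rars* (0.61, SE 0.20, adjusted p = 0.255) and *Aars* (0.36, SE 0.13, adjusted p = 0.289). Of the 20 stress signalling genes 2 did so, *Ddit3*, which encodes the death-linked factor CHOP, at -0.36 (adjusted p = 0.399) and *Eif2ak4* at 0.28 (adjusted p = 0.407). The transporter *Slc7a1* gave -0.36 (adjusted p = 0.284) and *Slc38a2* 0.51 (adjusted p = 0.437), *Gpt2* 0.37 and *Mthfd2* -0.20 (adjusted p = 0.414 and 0.492), *Shmt1* 0.34 and *Gnmt* -0.18 (adjusted p = 0.331 and 0.429), and the paralogs and partners *Slc7a6* -0.21 and *Cebpa* 0.43 (adjusted p = 0.447 and 0.546). None of these passed the adjustment over all probes.

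Individual livers varied widely in some members within a diet. The pooled SD within diet groups of *Chac1* was 0.888 in liver, above that of 99.9% of probes, that of *Asns* 0.76 (99.7%) and that of *Cebpb* 0.505 (97.8%), where the median probe had 0.168. In HH livers alone *Chac1* went from -1.60 in replicate 3 to 1.21 in replicate 2, and in LH livers from -1.18 to 1.38. *Sesn2* (0.173), *Slc3a2* (0.151) and *Slc7a5* (0.213) were near the median probe. In colon the SD was lower for *Asns* (0.28), *Cebpb* (0.29) and *Chac1* (0.401, above 97.5% of probes), with a median probe of 0.156.

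For some members part of the spread followed the slide. In liver, slides held 57.3% of the variance of *Asns* within diet groups and 60.6% of that of *Cebpb*. For *Chac1* they held 32.8%, where the median probe had 33%. In liver *Phgdh*, *Psat1*, *Psph* and *Asns* had higher means on slides 1, 3 and 4 than on slides 2, 5 and 6, and in colon *Phgdh*, *Psat1*, *Psph* and *Asns* were highest on slides 11 and 12. *Asns* averaged -2.73, -2.32 and -2.37 on liver slides 1, 3 and 4 and -3.69, -3.46 and -3.19 on slides 2, 5 and 6. Slides held 69.4% of the variance of *Psph* within diet groups in liver and 82.9% in colon, against medians of 33% and 45.4% over all probes. The reference signal of the same *Psph* probe ran opposite to its ratio, at 11.29 to 11.32 on slides 1, 3 and 4 and 11.54 to 11.64 on slides 2, 5 and 6 of liver, and at 11.05 to 11.08 on slides 11 and 12 against 11.64 to 11.72 on slides 7 to 10 of colon (log2 quantile-normalised Cy5). The other *Psph* probe (A_51_P430263) went the opposite way in the reference. Slides held 16.8% of its variance within diet groups in liver and 60.8% in colon. For *Asns* in liver the mouse signal itself differed between slides, at 8.57 to 9.07 on slides 1, 3 and 4 against 7.85 to 8.40 on the others. In colon the *Asns* mouse signal was 12.85 and 12.77 on slides 11 and 12, against 12.73 to 13.14 on slides 7 to 10. Its reference signal there was 12.41 and 12.26 against 12.71 to 12.89. The reference signals of the chosen probes of *Phgdh* and *Psat1* were also lower on slides 11 and 12 than on slides 7 to 10. Since each slide held all 4 diets, the slide does not align with diet.

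**Figure D4:**
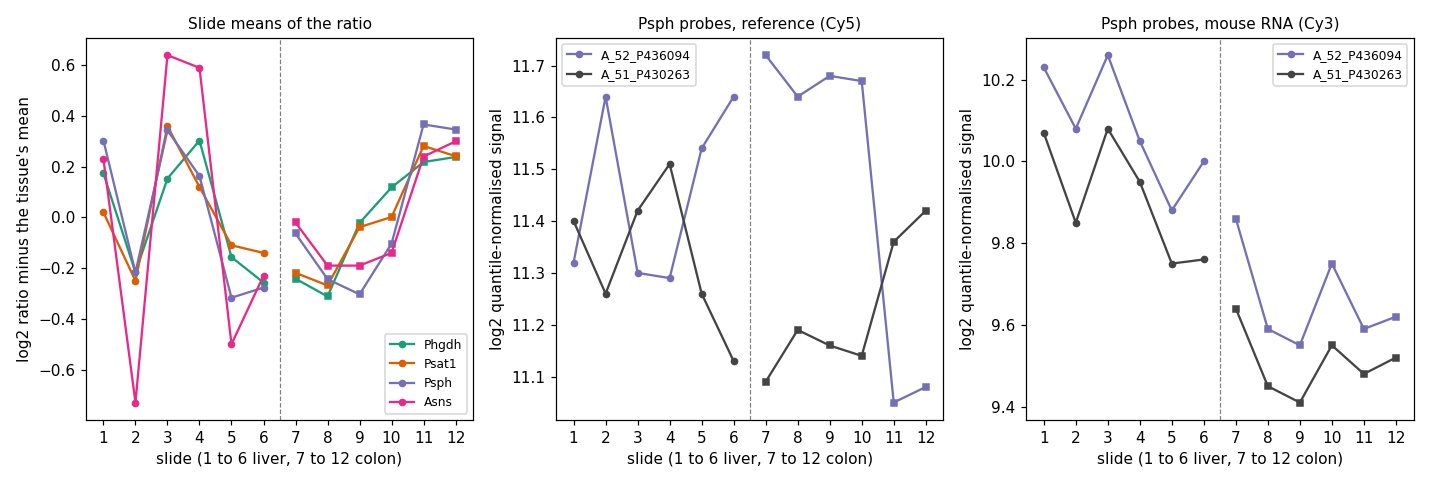
Mean log2 ratio per slide after subtracting the tissue's mean for *Phgdh*, *Psat1*, *Psph* and *Asns* (left), and mean log2 quantile-normalised signal per slide of the 2 *Psph* probes in the reference channel (middle) and the mouse channel (right). Slides are on the x axis, 1 to 6 with liver and 7 to 12 with colon, and lines join slides of 1 tissue only to guide the eye. The probe A_52_P436094 falls to 11.05 and 11.08 in the reference on slides 11 and 12.

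The ratios of the 3 serine synthesis genes and *Asns* varied together among mice. In liver their 6 pairwise correlations were 0.62 to 0.82 over 23 mice, and 0.38 to 0.79 after centring within slide and diet. On the mouse signal alone *Psat1* with *Asns* was 0.80, *Phgdh* with *Asns* 0.65 and *Phgdh* with *Psat1* 0.46. The pairs with *Psph* were lower on that signal, at 0.43 with *Phgdh*, 0.34 with *Asns* and 0.20 with *Psat1*. In colon the 6 values were 0.49 to 0.88 over 24 mice, 0.23 to 0.78 after centring, and on the mouse signal 0.75 for *Phgdh* with *Psat1* but 0.18 for *Phgdh* with *Asns* and 0.19 for *Psat1* with *Asns*. The colon mouse signal gave 0.54 for *Phgdh* with *Psph*, 0.56 for *Psph* with *Asns* and 0.38 for *Psat1* with *Psph*. Liver LH replicate 3 had the highest *Psat1* (-1.43) and LH replicate 4 the highest *Phgdh* (-2.97) and *Asns* (-1.02) of all livers.

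The correlations of *Chac1* are given by tissue. In liver it correlated with *Slc7a5* at 0.58 (0.55 centred, 0.54 on the mouse signal) and with *Cebpb* at 0.45 (0.55 centred), and with *Asns* at 0.23. In colon it correlated with *Asns* at 0.68 (0.60 centred) and *Psph* at 0.63 (0.47 centred), and with *Cebpb* at -0.10, while with *Slc7a5* it gave -0.13 (0.33 centred, 0.39 on the mouse signal). *Slc3a2* and *Slc7a5*, the chains of 1 exchanger, correlated at -0.19 in liver and 0.58 in colon (-0.30 and 0.52 centred), although on the colon mouse signal alone they gave 0.15. *Sesn2* and *Asns* correlated at -0.40 in colon and -0.75 after centring, but at -0.07 on the mouse signal alone. These ratios share the arrays, the slides and the reference, and the difference of a correlation between tissues was not tested.

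**Figure D5:**
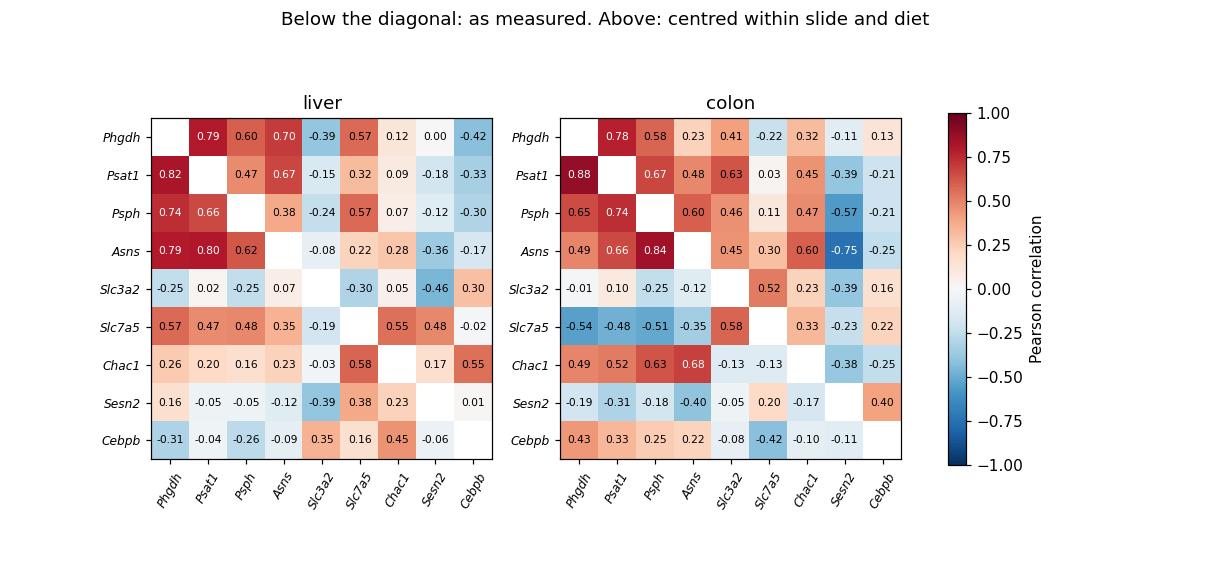
Pearson correlations between the 9 members over 23 livers (left) and 24 colons (right), with values as measured below the diagonal and values centred within slide and diet above it (24 arrays each). The block of *Phgdh*, *Psat1*, *Psph* and *Asns* at the top left is positive in both tissues by both measures.

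Some cell type markers moved with the serine genes across livers. The mean of the 6 proliferating cell markers correlated at 0.70 with *Phgdh*, 0.74 with *Psat1* and 0.61 with *Psph*, and the hepatocyte mean at -0.67 with *Phgdh* and -0.78 with *Psph*. The colon epithelium mean, which was between -5.03 and -4.28 in all livers, correlated at 0.67 with *Phgdh* and 0.73 with *Psph*. The means of the other lists also correlated positively with *Phgdh* in liver, from 0.26 for macrophages and erythroid cells to 0.61 for smooth muscle. In colon the proliferating cell mean gave 0.01 with *Phgdh*, 0.04 with *Psat1* and 0.11 with *Psph*. Among the livers, HL replicate 1 stood apart with a pancreatic acinar mean of 1.13 where the next liver had -1.81. In colon, LL replicate 4 stood apart with a lymphocyte mean of 1.84 where the next colon had 0.22. This colon had the highest *Phgdh* (-0.10) and *Psat1* (-0.40) of the LL colons. The part of these markers in the values of the members was not tested.

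The genes outside the 9 whose ratios were most like the mean standardised pattern of the members in liver were *Lamtor4* (r = 0.90), *Ift27* (0.86), *Sumf1* (0.85), *Arsb* (0.84) and *Zbtb8a* (0.84), over 23 mice. After centring within slide and diet they were *Mrpl28* (0.84), *Nupr1* (0.83), *Olfr994* (0.83), *Naa38* (0.82) and *Lsm6* (0.82). In colon they were *Klk1b3*, *Hmox1*, *Gde1*, *Bdp1* and *Uck1* at 0.76 to 0.74 over 24 mice, and after centring *Tspan14*, *Msgn1*, *Ripk2*, *Ifi30* and *Agfg1* at 0.83 to 0.81. No gene was in both lists of a tissue.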

How the data were processed

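Liver and colon RNA of 47 sample codes, each counted as 1 mouse, was measured on 48 Agilent 2-colour arrays. The authors deposited, for each spot, the median foreground and background intensity of both channels from Feature Extraction (version 10.10.1.1 in the file headers), without normalization, and the scanner's processed intensity. A series table of the authors holds log2 values for the same arrays, reference divided by mouse, and matched loess without background correction after its sign was turned (r = 1). The submitters' processing notes name limma and R 3.0.2. The reference is a whole pregnant mouse and foetus in the labels, but pooled tissue RNA in the methods, and was the Cy5 channel of every array.

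Computations used R 4.3.3 and limma 3.58.1. Background was corrected with normexp (offset 50). Where a spot's local background exceeded its foreground it was first replaced by the array's median background. The SD of an array's log2 ratios was 0.53 to 0.94 without this step and 0.787 to 0.944 with it. Ratios were normalized by loess within arrays, turned to mouse over reference, and averaged over the spots of a probe and over the 2 arrays of 1 HH mouse, which correlated at 0.805 against at most 0.261 for other HH pairs. Control spots and outlier flags were left out. Each tissue was fitted as 4 groups with lmFit and eBayes, and both together as 8 groups for the tissue comparison. The fit of 8 groups took every liver and colon as a separate mouse, so any pairing of tissues within a mouse was not used. The Benjamini-Hochberg adjustment covered every probe measured in 2 or more mice per group, and intervals are 95%. The fits were tested on simulated data. The number of arrays limits the precision.

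Probes were named through their accessions in the RefSeq table of GRCm38.p6, while the file headers name the mm9 build. Coordinates are therefore given only for the promoter windows shown, in GRCm38.p6. In all 27050 of 41174 probes were named. The chosen probe of a gene has the highest mean intensity. Full values are given for *Cebpb*, *Psph*, *Slc3a2* and *Asns*, the members with the lowest p for HH *vs.* LH in liver, and other members by range. From other lists the called genes or, without any, the 2 with the lowest p are named, and cell type markers are given as counts and means. Correlations centred within slide and diet or on Cy3 alone were also chosen after seeing the data. The 5 genes most correlated with the members' mean standardised values are given per tissue. Lists covered stress signalling, amino acid transporters, amino acid and one-carbon enzymes, serine and glycine use, aminoacyl-tRNA synthetases, paralogs and partners, and markers of 10 cell types. The members, the lists and the tests were chosen with earlier results of these data known. A mouse was counted as showing *Xist* where its log2 median Cy3 signal for *Xist* exceeded 8.25, without background correction or normalization. The alternatives were other background corrections, normalizations and channels, the deposited ratios, the slide as a block (with both arrays of 1 HH mouse and, chosen after seeing the data, with either), the 2 arrays as 2 mice, a filter on dim probes, array weights, fits of the groups compared only, no fold threshold, no mice with *Xist*, and each mouse left out.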

Additional observations from a re-analysis of the deposited data

Results flagged for a closer look

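Among 72 groups of mice (9 genes, 2 tissues and 4 diets) tested for a value far from the rest of its group, 3 held one, where chance gives about 1 in 20. All were colons of 6 mice. *Cebpb* in LL replicate 6 was -1.535, above the other LL colons at -2.115 to -1.906. *Phgdh* in HL replicate 5 was -0.339, above the others at -0.818 to -0.658, and this was a mouse with Xist. *Slc3a2* in LH replicate 3 was -1.2, below the others at -0.973 to -0.902.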

How the results depend on the processing

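The mice of different diets are paired only by the slide they share, so the slide served as the replicate block. For each diet comparison the number of member probes called stayed at 0 under every alternative run and with each mouse left out, and the tissue comparison stayed at 8 with each mouse left out (8 to 8). Without the fold threshold the tissue comparison called 13 of 13. Over all probes that comparison called 12497, and 28646 without the fold threshold, 20275 with processed signals and 24223 with median centring. The Aquantile step leaves the ratios as they are. The slide block with all 24 liver arrays, which also counts 1 HH mouse as 2, called 28 probes for HH *vs.* LH in liver, 3 for the liver interaction and 6 for colon against liver, with 0 members among them. With that mouse used once, by its array on slide 6 or on slide 3, the block called 0 and 0 probes for HH *vs.* LH, 0 and 4 for the interaction, and 1 and 0 for colon against liver, again with 0 members. In these 2 fits, chosen after seeing the data, member probes at an unadjusted limma p under 0.05 numbered 2 and 1 for HH *vs.* LH (*Cebpb* in both, *Psph* in 1) against 0 in the reported fit, while probes in all numbered 6452 and 5820 against 4934, and 3 and 3 for LH *vs.* LL (*Asns*, *Cebpb* and *Slc3a2*) against 1. With 2 arrays of 1 HH mouse as 2 mice, array weights, or the 2 groups alone, HH *vs.* LH in liver called 6, 3 and 17 probes, and array weights called 19 for the liver interaction and 11 for colon against liver, again with 0 members.

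With median centring in place of loess the share of called probes higher in colon was 42.2% against 51.8%, the difference of *Psph* turned to 0.25, *Chac1* (-0.36) and *Sesn2* (-0.02) were no longer called, and *Slc3a2* (0.86) and *Slc7a5* (0.74) were. For HH *vs.* LH, differences that were not called changed sign in liver for *Psat1* (0.16 with processed signals, 0.05 with median centring, 0.13 with Cy3 alone), *Phgdh* (0.03 with median centring, 0.01 with Cy3 alone), *Chac1* (-0.3 with array weights) and *Slc7a5* (-0.04 with array weights), and in colon for *Sesn2* (0.01 with Cy3 alone, 0.06 without mice with Xist) and *Psph* (0.01 without mice with Xist). The cause of these changes was not tested.

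Leaving out 1 mouse changed the sign for *Psat1* (-0.16 to 0.07), *Asns* (-0.03 to 0.51), *Chac1* (-0.16 to 0.54), *Sesn2* (-0.06 to 0.15) and *Slc7a5* (-0.03 to 0.12) in liver and for *Psph* (-0.12 to 0.05), *Asns* (-0.1 to 0.06), *Chac1* (-0.23 to 0.09) and *Cebpb* (-0.2 to 0.01) in colon, none of them called. *Cebpb* in liver stayed at 0.42 to 0.72 (adjusted p 0.287 to 0.682). In liver the sign changes came without HH replicate 3 or LH replicates 2 to 6.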
